A study of Mus musculus with 46 samples.

Results

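The genes described here are those of the mouse major histocompatibility complex (MHC, called H2 in the mouse) and of the machinery that loads its molecules with peptide. They were chosen by name and level: all protein-coding genes whose symbol begins with H2-, plus B2m, Tap1, Tap2, Tapbp, Psmb8, Psmb9, Psmb10, Cd74, Ciita and Nlrc5, with a mean of at least 1 CPM (counts scaled to library size) in liver or in white adipose tissue (WAT). Of 55487 gene identifiers in the count tables, 44 met the naming rule and 31 also met the level. The 31 comprised 21 class I genes and 10 class II genes, and 26 of them lie on chromosome 17 (GRCm38). Just inside the level were H2-M9 at 1.07 CPM, H2-Oa at 1.08 CPM and H2-M2 at 1.23 CPM in WAT. H2-M9 met it only through female WAT and H2-M2 only through male WAT. H2-Oa met it only with WAT male PTP-r library 7 included. Just outside were H2-Eb2 at 0.790 CPM in WAT and H2-Q2 at 0.549 CPM in liver. In all, 13 genes were below the level, among them H2-Ke6, which belongs to neither class.

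The series, whose title names a mixed-chirality prohibitin peptide, sequenced RNA from liver and WAT of wild-type C57BL/6 mice on a high-fat diet. Females and males each received PTP-r or vehicle, with 6 libraries each in each organ except for 5 in vehicle-treated males. All mice, treated or not, had been fed the high-fat diet from 7 weeks of age for 21 weeks. From week 16 they received subcutaneous injections for 5 weeks, of PTP-r at 1 mg per kg per day or of PBS as vehicle. The labels give the agent as PTP-r without its full name, and they do not name the fat depot. The labels do not state that each library came from a separate mouse, so the p-values measure the spread between libraries.

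Reads assigned to genes numbered 20266425 to 57518893 per liver library and 20991069 to 32219751 per WAT library. The sum of 6 hepatocyte markers was 90235 to 116552 CPM in liver libraries against 5.34 to 528 CPM in WAT libraries. The sum of 6 adipocyte markers was 888 to 2527 CPM in liver and 9296 to 17493 CPM in WAT. Nearly all of the liver sum was Pck1, with a mean of 1592 CPM over the liver libraries. The liver means of Adipoq, Plin1, Lep, Retn and Cidec were 0.348, 0.391, 0.060, 0.115 and 2.64 CPM. One WAT library, male PTP-r library 7, stood apart in lymphoid markers: its 10 B cell markers summed to 447 CPM, against 11.9 to 48 CPM in the other 22 WAT libraries. Of the 3 female liver libraries, 2 female WAT libraries and 4 male WAT libraries high in markers of other tissues, the highest WAT sums were 1001 CPM of skeletal muscle markers and 89.8 CPM of epididymis markers.

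Class I molecules are made by nearly all nucleated cells and show peptides from inside the cell to CD8 T cells. Their heavy chains pair with beta-2-microglobulin (B2m) and are loaded in the endoplasmic reticulum with peptides that the immunoproteasome (Psmb8, Psmb9, Psmb10) cuts, the Tap1 and Tap2 transporter carries in and tapasin (Tapbp) helps to fit. Class II molecules are made mainly by macrophages, dendritic cells and B cells and show peptides from engulfed material to CD4 T cells. Their chains assemble with the invariant chain (Cd74), exchange its remnant for peptide with the help of H2-DM, and are switched on by the transactivator Ciita, while its relative Nlrc5 acts on class I genes.

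The level of each gene per kilobase of exon ordered the module in each organ. In liver the highest levels were those of B2m at 1685 CPM per kb, of H2-Q10, a class I chain that mouse liver secretes, at 487 CPM per kb, of the classical heavy chain H2-K1 at 443 CPM per kb and of the other classical heavy chain H2-D1 at 232 CPM per kb. In WAT the order was B2m at 2241, H2-D1 at 638, Cd74 at 468 and H2-K1 at 360 CPM per kb, and H2-Q10 had 5.79 CPM per kb. All 10 class II genes had lower levels in liver than in WAT, at 0.0653 (H2-Aa) to 0.285 (H2-Oa) times the WAT level, with a median of 0.0889. Of the 20 class I genes with reads in both organs, 15 were also lower in liver, with a median of 0.760 times the WAT level. The exceptions were H2-Q1 and H2-Q10, 103-fold and 84.0-fold higher in liver, and H2-T23, H2-Q7 and H2-K1 at 2.20, 1.59 and 1.23 times the WAT level. H2-M9 had no read in any of the 23 liver libraries, which allows 0.0522 to 0.148 CPM per library at 3 counts, and had 0.299 to 3.80 CPM in WAT. These levels come from normalisations made within each organ and were not tested against each other.

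**Figure D1:**
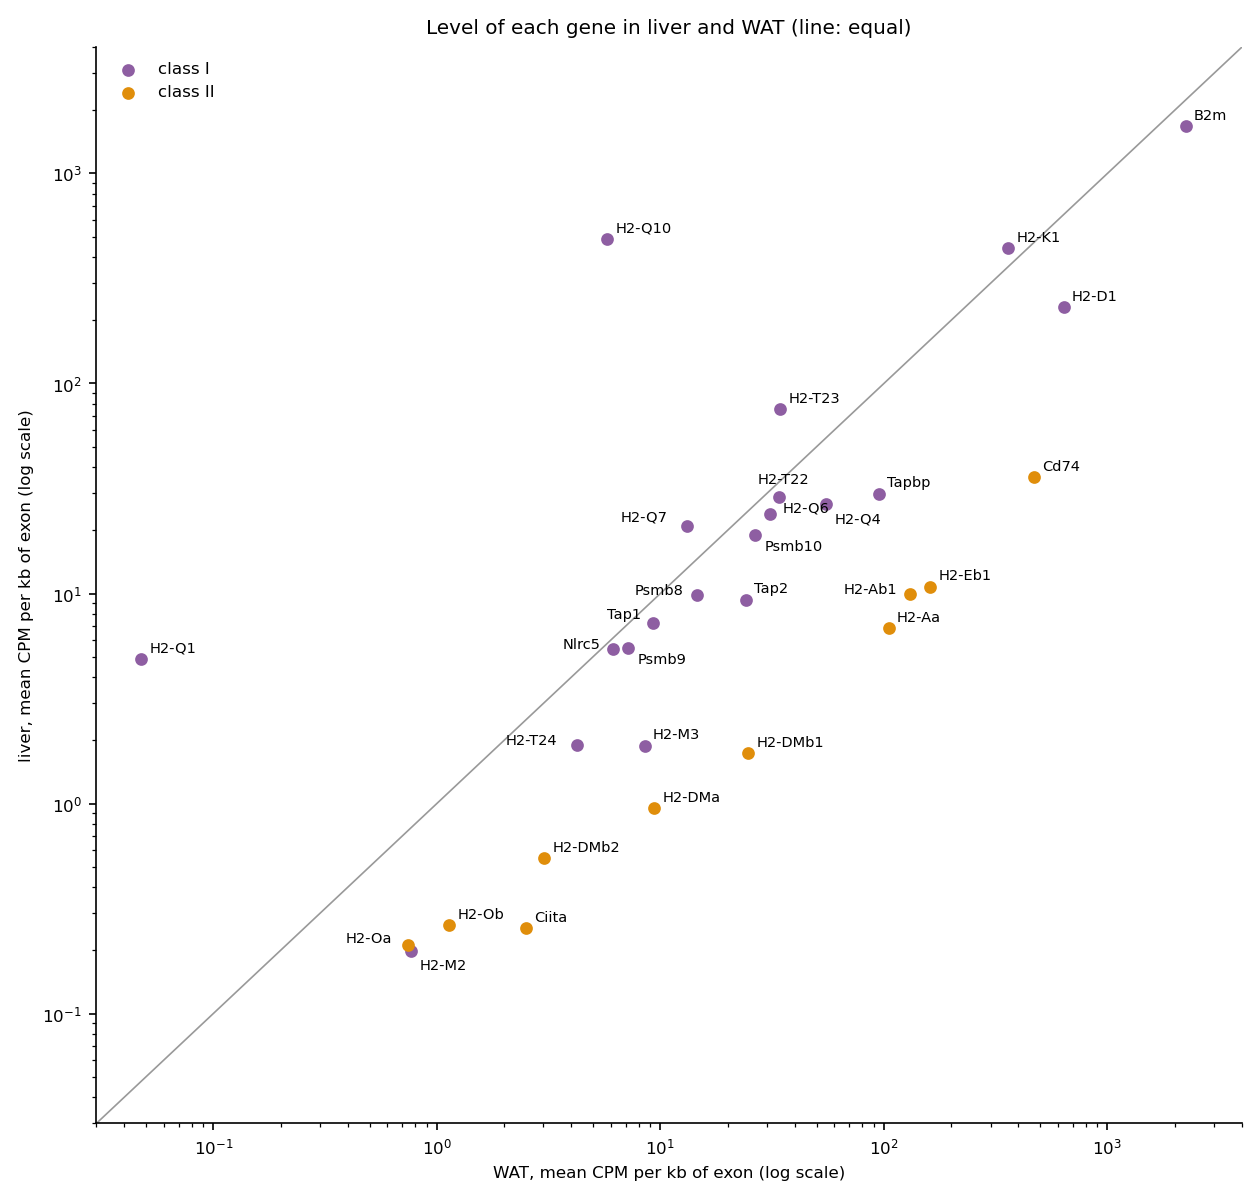
Mean level of each member in liver (vertical axis) and WAT (horizontal axis), in CPM per kb of exon on log axes, class I purple and class II orange, with the line of equal levels. Class II genes all sit below the line, whereas H2-Q10 (487 CPM per kb in liver against 5.79 in WAT) and H2-Q1 sit far above it; H2-M9, at 0 in liver, is not drawn.

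The class I heavy chain genes are related copies of one another. The windows below are the 200 bases (class I) or 150 bases (class II) before the start of transcription in RefSeq (GRCm38.p6), 5′ to 3′ on the strand of the gene, for members whose behaviour differs in the results. The capitals mark matches on either strand to CCAAT, to a longer NF-kB-type motif (the first capitals of H2-K1 and H2-Q6), to a shorter NF-kB-type motif (the first capitals of H2-Q4 and H2-Aa) and to the core of the interferon-stimulated response element (the first capitals of B2m).
H2-K1, chr17:34000348-34000547, minus strand: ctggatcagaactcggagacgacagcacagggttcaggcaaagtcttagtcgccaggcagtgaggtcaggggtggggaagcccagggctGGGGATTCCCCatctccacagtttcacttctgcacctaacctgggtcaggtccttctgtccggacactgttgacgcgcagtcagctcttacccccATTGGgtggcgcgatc
H2-Q6, chr17:35424650-35424849, plus strand: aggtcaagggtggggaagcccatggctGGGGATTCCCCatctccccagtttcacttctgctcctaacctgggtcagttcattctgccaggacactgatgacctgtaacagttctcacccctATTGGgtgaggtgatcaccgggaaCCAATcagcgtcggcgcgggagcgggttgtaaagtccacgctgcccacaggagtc
H2-Q4, chr17:35379417-35379616, plus strand: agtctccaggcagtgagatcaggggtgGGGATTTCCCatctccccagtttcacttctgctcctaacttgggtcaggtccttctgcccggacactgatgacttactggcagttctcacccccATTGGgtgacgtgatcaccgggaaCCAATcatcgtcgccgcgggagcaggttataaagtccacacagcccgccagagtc
H2-Q10, chr17:35469889-35470088, plus strand: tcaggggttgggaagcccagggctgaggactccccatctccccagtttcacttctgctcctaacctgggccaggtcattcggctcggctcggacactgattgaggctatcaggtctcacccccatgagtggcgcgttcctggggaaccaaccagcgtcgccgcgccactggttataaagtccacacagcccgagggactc
B2m, chr2:122147487-122147686, plus strand: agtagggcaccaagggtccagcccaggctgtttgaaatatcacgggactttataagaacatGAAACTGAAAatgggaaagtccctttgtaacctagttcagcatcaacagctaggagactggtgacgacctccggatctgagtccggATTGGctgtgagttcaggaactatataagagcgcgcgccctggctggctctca
H2-Aa, chr17:34287824-34287973, minus strand: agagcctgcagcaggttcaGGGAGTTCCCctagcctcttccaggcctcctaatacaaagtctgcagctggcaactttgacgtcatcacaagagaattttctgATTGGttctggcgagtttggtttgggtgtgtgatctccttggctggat
H2-Eb1, chr17:34305717-34305866, plus strand: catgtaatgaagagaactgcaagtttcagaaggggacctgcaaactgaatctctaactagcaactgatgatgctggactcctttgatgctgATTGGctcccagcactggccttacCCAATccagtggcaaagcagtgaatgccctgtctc
H2-Ob, chr17:34238755-34238904, plus strand: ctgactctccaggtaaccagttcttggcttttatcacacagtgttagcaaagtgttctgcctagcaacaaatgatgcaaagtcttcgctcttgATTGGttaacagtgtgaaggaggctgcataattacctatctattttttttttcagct

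Promoters of 24 of the 31 members were in the table, and matches were sought on both strands in the 250 bases before the start. The longer NF-kB-type motif occurred in 3 of 17 class I promoters (H2-K1, H2-D1 and H2-Q6) and in 0.0304% of the 32851 promoters in the table. The shorter one, which shares no member with it, occurred in H2-Q4 and H2-Aa and in 0.578% of all promoters. H2-Q10 held none of these patterns, nor CCAAT. That short motif, CCAAT, was held by 14 of 17 class I promoters, 6 of 7 class II promoters and 33.8% of all promoters. The interferon-stimulated response element core was found in B2m, H2-T22 and H2-T23 and in 2.98% of all promoters. A form of the X box of class II promoters was found in 1 of 7 class II promoters (H2-DMb1). It was also found in 3 of 17 class I promoters (Tap1, Psmb9 and H2-M9) and in 4.29% of all promoters. Tap1 and Psmb9 are neighbours on opposite strands. Their matches to this form are the same letters read on opposite strands, and their CCAAT matches lie equally far from them. Each may be the same site counted for both genes. Only exact matches to a pattern were counted, and near matches were not. A promoter without a match is therefore not shown to lack the element. These matches are letters in a window and were not tested against the expression values.

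In male liver the module was higher with PTP-r. Of the 30 members tested, 22 rose and none fell in the edgeR quasi-likelihood test (Benjamini-Hochberg adjusted p below 0.05 over the 15892 genes tested), where 5.23% of all genes rose and 2.45% fell. They were 14 of 20 class I genes, with a median log2 fold change of 0.40 over the 20, and 8 of 10 class II genes, with a median of 0.85 over the 10. The median over all genes tested was 0.0029. The libraries of the groups did not overlap for 14 class I genes and 1 class II gene, against 3.71% of all genes that were higher without overlap.

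The genes that cut, carry and load class I peptides all rose: Psmb8, Psmb9, Psmb10, Tap1, Tap2 and Tapbp. Psmb8, a catalytic subunit of the immunoproteasome, ranged from 32.7 to 36.9 CPM with a median of 34.6 CPM in PTP-r-treated males, against 22.8, 23.0, 23.4, 24.8 and 26.1 CPM in vehicle-treated males. Every PTP-r library lay above every vehicle library, and the log2 fold change was 0.53 ± 0.07 (SE, edgeR adjusted p = 2.67e-05). Tapbp had 104 to 123 CPM with a median of 112 CPM in PTP-r males, against 79.4, 81.5, 82.3, 86.5 and 87.0 CPM in vehicle males. The groups were again separate, with a log2 fold change of 0.43 ± 0.06 (edgeR adjusted p = 0.000116). Tap1 had 39.7 to 51.1 CPM with a median of 43.2 CPM in PTP-r males, against 25.6, 29.5, 30.1, 32.6 and 38.9 CPM in vehicle males, a log2 fold change of 0.50 ± 0.12 (edgeR adjusted p = 0.00762). The other immunoproteasome subunits, Psmb10 at 0.44 and Psmb9 at 0.46, and the second subunit of the transporter, Tap2 at 0.36, rose as well on the log2 scale.

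Of the 5 heavy chain genes of the Q region, H2-Q4, H2-Q6 and H2-Q7 rose, and H2-Q1 and H2-Q10 did not pass. H2-Q4 had 62.9 to 76.8 CPM with a median of 74.2 CPM in PTP-r males, against 44.3, 48.4, 48.8, 50.8 and 54.1 CPM in vehicle males. All 6 PTP-r libraries lay above the vehicle range, and the log2 fold change was 0.54 ± 0.07 (edgeR adjusted p = 3.66e-05). H2-Q6 and H2-Q7, which encode the Qa-2 antigen, changed by 0.64 ± 0.10 and 0.60 ± 0.10 on the log2 scale. H2-T23, which encodes Qa-1, a ligand of natural killer cell receptors, changed by 0.37 ± 0.07, and H2-T22, a ligand of gamma-delta T cells, by 0.30 ± 0.07. The members of these families are close copies whose shared reads do not align uniquely, so their values rest on the reads that do.

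Both classical heavy chains rose, with the smallest fold changes among the class I genes that passed. H2-K1 had 1364 to 1543 CPM with a median of 1436 CPM in PTP-r males, against 1101, 1237, 1243, 1246 and 1355 CPM in vehicle males. The lowest PTP-r library was just above the highest vehicle library, and the log2 fold change of 0.22 ± 0.06 passed the test (edgeR adjusted p = 0.0264), but not when any of 4 of the 11 male libraries (PTP-r libraries 2 and 6, vehicle libraries 4 and 12) was left out, nor with no expression filter. H2-D1 had 586 to 653 CPM with a median of 635 CPM in PTP-r males, against 462, 489, 508, 547 and 576 CPM in vehicle males, a log2 fold change of 0.28 ± 0.06 (edgeR adjusted p = 0.00544).

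Not all class I genes passed. B2m, the shared light chain, had 1492 to 1618 CPM with a median of 1557 CPM in PTP-r males, against 1378, 1421, 1424, 1462 and 1528 CPM in vehicle males. The groups overlapped at the highest vehicle library, and the log2 fold change was 0.11 ± 0.05 (edgeR adjusted p = 0.238). Nlrc5 had 39.1 to 55.7 CPM with a median of 45.9 CPM in PTP-r males, against 31.1, 31.5, 36.8, 40.8 and 47.3 CPM in vehicle males (log2 fold change 0.33 ± 0.13, edgeR adjusted p = 0.134). H2-Q10 differed by -0.03 ± 0.11 and H2-Q1 by -0.23 ± 0.32 on the log2 scale, and neither passed. H2-M3, which presents formylated peptides, and H2-T24 had log2 fold changes of 0.37 ± 0.15 and 0.63 ± 0.25 and did not pass.

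H2-M2, a class I chain with very few reads in liver, had the largest fitted change, a log2 fold change of 2.34 ± 0.44 (edgeR adjusted p = 0.00137). It rests on 69 reads summed over the 6 PTP-r libraries against 12 reads over the 5 vehicle libraries, where each vehicle library had 1 to 4 reads. Relative to all gene reads that is a ratio of 5.47, with an exact 95% interval of 2.94 to 11.1 that covers counting error only.

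The 8 class II genes that rose had log2 fold changes of 0.63 to 1.16. H2-Aa, an alpha chain, had 17.7 to 39.99 CPM with a median of 27 CPM in PTP-r males, against 12.4, 12.6, 13.7, 20.3 and 20.5 CPM in vehicle males. The lowest PTP-r library, library 1, fell among the vehicle libraries and the other 5 lay above them, with a log2 fold change of 0.82 ± 0.20 (edgeR adjusted p = 0.00966). Its partner chain H2-Ab1 had 17.4 to 38.6 CPM with a median of 25.5 CPM in PTP-r males, against 11.5, 12.6, 15, 19.4 and 20.2 CPM in vehicle males (log2 fold change 0.76 ± 0.20, edgeR adjusted p = 0.0168), a call lost without vehicle library 12. H2-Eb1, another class II beta chain gene, had 13.7 to 32.6 CPM with a median of 21.7 CPM in PTP-r males, against 8.28, 9.46, 11.6, 16.1 and 16.1 CPM in vehicle males (log2 fold change 0.88 ± 0.21, edgeR adjusted p = 0.0109). In all 3 chains PTP-r library 1 was the lowest of its group and PTP-r library 6 the highest.

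The genes that act on the class II chains rose with them. Cd74 had 38.6 to 79.2 CPM with a median of 60.6 CPM in PTP-r males, against 27.6, 27.7, 36.3, 47 and 48.5 CPM in vehicle males, and its log2 fold change of 0.70 ± 0.19 passed (edgeR adjusted p = 0.0231). Ciita had 1.45 to 4.13 CPM with a median of 2.14 CPM in PTP-r males, against 0.866, 1.03, 1.15, 1.38 and 1.52 CPM in vehicle males, a log2 fold change of 1.07 ± 0.29 (edgeR adjusted p = 0.0230). Cd74 lost its call when any of 5 of the 11 male libraries was left out (PTP-r libraries 6 and 11, vehicle libraries 9, 10 and 12), and Ciita without PTP-r library 6 or 11 or vehicle library 10 or 12. H2-DMb1, a chain of the peptide exchanger, was the class II gene whose groups did not overlap, at 2.35 to 3.92 CPM with a median of 3.14 CPM in PTP-r males, against 0.971, 1.55, 1.76, 2.06 and 2.10 CPM in vehicle males (log2 fold change 0.89 ± 0.19, edgeR adjusted p = 0.00491). H2-DMa at 0.63 ± 0.19 and H2-DMb2 at 1.16 ± 0.34 on the log2 scale passed narrowly, and each lost its call in 8 of 11 fits that left out 1 library. The chains of H2-O, which restrains H2-DM, did not pass, with log2 fold changes of 0.94 ± 0.40 for H2-Oa and 0.70 ± 0.28 for H2-Ob.

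**Figure D2:**
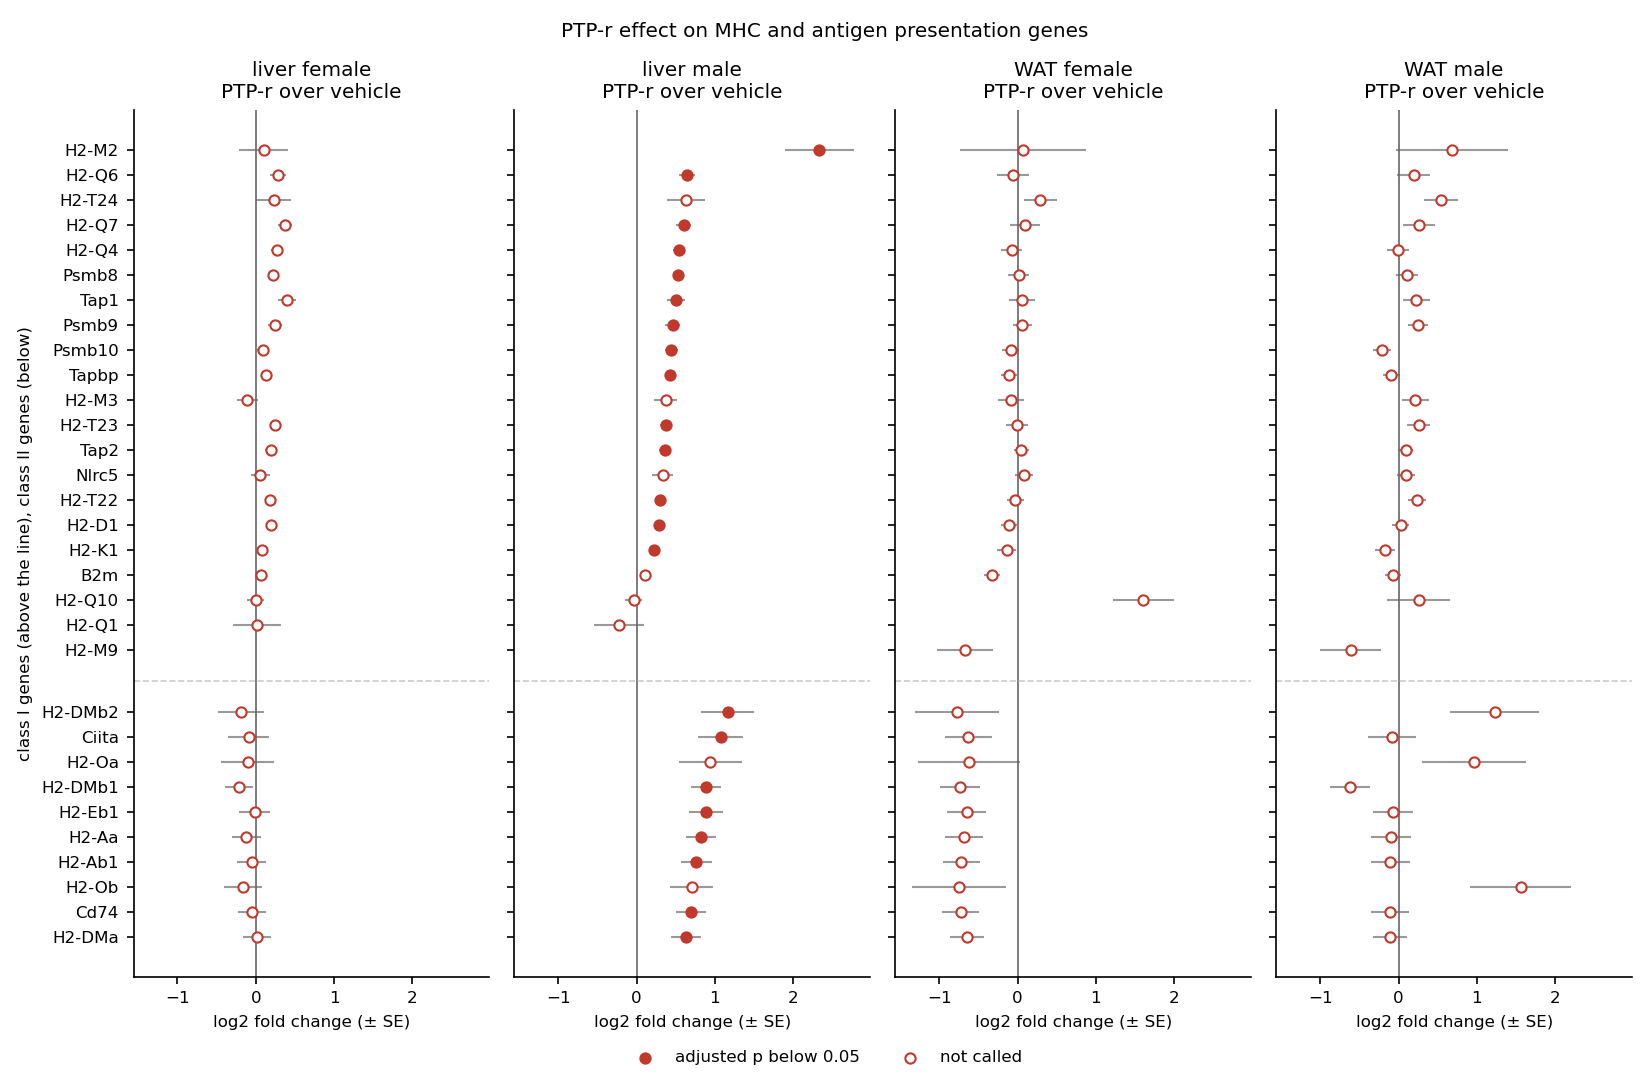
Log2 fold change of PTP-r over vehicle with its standard error for each member in female liver, male liver, female WAT and male WAT, class I above the dashed line and class II below, filled where the edgeR adjusted p was below 0.05. Filled points occur only in male liver (22 members), and in female WAT the class II points lie left of 0 without passing the test.

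Markers of immune cells moved in male liver at the same time. Of 10 macrophage markers 6 rose, of 4 monocyte markers 4, of 9 dendritic cell markers 3 and of 6 Kupffer cell markers 2. Of 10 T and NK cell markers 1 rose and of 6 plasma cell markers 1, where 5.23% of all genes rose and 2.45% fell. The median log2 fold change was 1.09 for T and NK cell markers, 1.41 for plasma cell markers and 0.81 for macrophage markers. The macrophage marker Mrc1 averaged 19.1 CPM in PTP-r males and 23.5 CPM in vehicle males. The summed macrophage markers were 188 to 378 CPM with a median of 263 CPM in PTP-r males and 125 to 203 CPM with a median of 174 CPM in vehicle males. The monocyte markers summed to 7.91 to 16.2 CPM in PTP-r males and to 4.35 to 5.72 CPM in vehicle males, without overlap. None of the 10 B cell markers passed, with sums of 4.98 to 12.3 CPM in PTP-r males and 4.47 to 5.70 CPM in vehicle males, and 4 of 7 endothelial markers fell. The part of these cells in the class II result was not tested. In bulk RNA a change in the number of cells of a type and a change of RNA per cell cannot be told apart.

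Other genes of antigen presentation, taken from a list of 39 tested genes outside the module, were tested as well. In male liver 14 rose and 1 fell, where 5.23% of all genes rose and 2.45% fell. The transcription factors of the myeloid lineage Irf8 and Spi1 rose by 0.94 ± 0.13 and 1.2 ± 0.18 on the log2 scale (edgeR adjusted p = 8.32e-05 and 0.000173). The lysosomal enzymes of the class II route, Ctss, which trims the invariant chain, and Ifi30, a thiol reductase, rose by 1.16 ± 0.19 and 0.75 ± 0.12. Cd40, a co-stimulatory receptor, averaged 0.953 ± 0.348 CPM in PTP-r males and 0.343 ± 0.102 CPM in vehicle males (SD). Tapbpl, a relative of tapasin, averaged 28.9 ± 2.41 CPM in PTP-r males and 23.0 ± 1.61 CPM in vehicle males (SD). The proteasome activator subunits Psme1 and Psme2 both rose by 0.24, and Psme3, of a different activator, fell by 0.18 on the log2 scale.

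**Figure D3:**
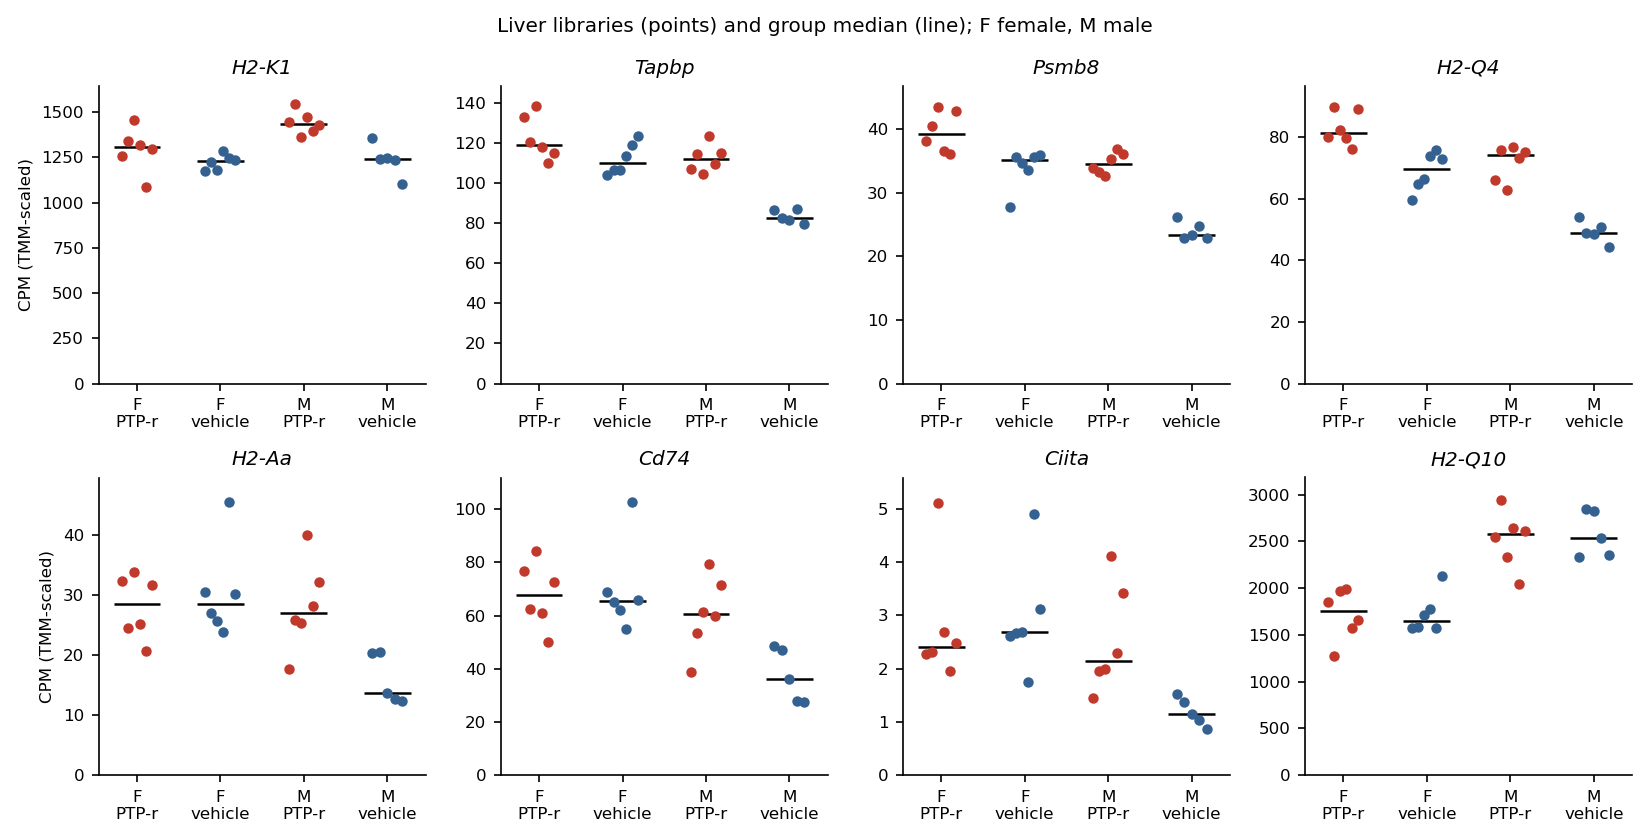
Level in CPM of 8 members in every liver library, females left and males right with PTP-r before vehicle in each sex, and a line at the median of each group. The male vehicle median is the lowest for Tapbp, Psmb8, H2-Q4, H2-Aa, Cd74 and Ciita, while H2-Q10 has its higher medians in both male groups, which overlap.

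In female liver no member passed with edgeR, where 0.164% of all genes did. At an unadjusted p below 0.05 there were 11 members, all class I and all higher with PTP-r, against 8.67% of all genes, and DESeq2 called 3 members (0.887% of all genes) and limma 0 (0.164% of all genes). The median log2 fold change was 0.19 over the 20 class I genes and -0.10 over the 10 class II genes, beside -0.0026 over all genes. The 3 class I genes whose groups did not overlap, against 0.422% of all genes higher without overlap, were H2-Q7, H2-Q4 and Psmb8.

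H2-Q7 had 90.1 to 116 CPM with a median of 100.2 CPM in PTP-r females, against 64.0 to 89.9 CPM with a median of 80.8 CPM in vehicle females. The groups touched without crossing, and the log2 fold change was 0.38 ± 0.09 (edgeR adjusted p = 0.0972). H2-Q4 had 76.2 to 89.7 CPM with a median of 81.2 CPM in PTP-r females, against 59.5 to 75.8 CPM with a median of 69.6 CPM in vehicle females (log2 fold change 0.27 ± 0.07, edgeR adjusted p = 0.0980). H2-T23 had 233 to 283 CPM with a median of 264 CPM in PTP-r females, against 209 to 238 CPM with a median of 215 CPM in vehicle females (log2 fold change 0.25 ± 0.07, edgeR adjusted p = 0.129). These were the 3 members that passed with DESeq2, at adjusted p of 0.0234, 0.0264 and 0.0448. Over all alternatives the adjusted p of H2-T23 was 0.0448 to 0.843.

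Of the 20 class I genes, 18 had positive log2 fold changes in female liver, the lowest value being -0.11 for H2-M3. Psmb8 had 36.1 to 43.5 CPM with a median of 39.3 CPM in PTP-r females, against 27.7 to 35.9 CPM with a median of 35.2 CPM in vehicle females (log2 fold change 0.23 ± 0.06, edgeR adjusted p = 0.162). Tap1 had 35.1 to 54.5 CPM with a median of 46.5 CPM in PTP-r females, against 28.1 to 40.3 CPM with a median of 34.9 CPM in vehicle females (log2 fold change 0.40 ± 0.11, edgeR adjusted p = 0.160). Tap1 thus overlapped between the groups, unlike Psmb8. H2-D1 had 559 to 717 CPM with a median of 667 CPM in PTP-r females, against 544 to 606 CPM with a median of 572 CPM in vehicle females (log2 fold change 0.19 ± 0.06, edgeR adjusted p = 0.260). H2-K1 had 1083 to 1458 CPM with a median of 1305 CPM in PTP-r females, against 1174 to 1285 CPM in vehicle females, and B2m had 1255 to 1549 CPM in PTP-r females, against 1297 to 1423 CPM in vehicle females. The vehicle libraries of both genes lay inside the PTP-r range, with log2 fold changes of 0.08 ± 0.06 and 0.07 ± 0.05. Nlrc5 had 44 to 61.2 CPM in PTP-r females, against 36.5 to 63.7 CPM in vehicle females (log2 fold change 0.06 ± 0.12).

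The class II genes of female liver differed little between the groups. H2-Aa had 20.7 to 33.9 CPM with a median of 28.5 CPM in PTP-r females, against 23.9 to 45.6 CPM with a median of 28.6 CPM in vehicle females (log2 fold change -0.12 ± 0.18, edgeR adjusted p = 0.927). Vehicle library 10 was the highest for H2-Aa, H2-Ab1, H2-Eb1, Cd74, H2-DMa and H2-DMb1, and it also had the highest sum of B cell markers in liver, 23.0 CPM. H2-Ab1 had 20.2 to 36.2 CPM in PTP-r females, against 23.0 to 43.9 CPM in vehicle females, H2-Eb1 had 17.4 to 29.2 CPM in PTP-r females, against 18.1 to 37.3 CPM in vehicle females, and Cd74 had 50.2 to 84.3 CPM in PTP-r females, against 54.9 to 103 CPM in vehicle females. Their log2 fold changes were -0.05 ± 0.18, -0.01 ± 0.20 and -0.04 ± 0.18. Ciita had 1.96 to 5.11 CPM in PTP-r females, against 1.74 to 4.90 CPM in vehicle females (log2 fold change -0.09 ± 0.26). The macrophage markers summed to 305 to 456 CPM in PTP-r females and 266 to 443 CPM in vehicle females, and none of the 10 passed. None of the 39 other presentation genes passed in female liver with edgeR.

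The difference between the sexes in their PTP-r effect was tested directly. No member passed with edgeR, where 0.107% of all genes did, while 16 members had an unadjusted p below 0.05, DESeq2 called 3 (1.35% of all genes) and limma 0 (0.0944% of all genes). The effect in females minus that in males was negative for all 10 class II genes, with a median of -0.92 on the log2 scale beside -0.0076 over all genes, and 9 of the 10 had an unadjusted p below 0.05, against 9.99% of all genes. The smallest p among them was that of H2-DMb1, at -1.10 ± 0.26 (edgeR adjusted p = 0.0853). H2-Aa had -0.94 ± 0.27 (edgeR adjusted p = 0.141), H2-Eb1 -0.90 ± 0.29 (edgeR adjusted p = 0.214) and Ciita -1.17 ± 0.39 (edgeR adjusted p = 0.232). Of the class I genes, H2-M2 at -2.24 ± 0.55, Tapbp at -0.30 ± 0.08 and Psmb8 at -0.31 ± 0.09 had the smallest p, with edgeR adjusted p of 0.0912, 0.126 and 0.172. DESeq2 called H2-DMb1, H2-Aa and H2-M2, and edgeR called H2-DMb1 without female PTP-r library 5 or without male PTP-r library 1, H2-DMb2 without female vehicle library 6 and H2-M2 without female vehicle library 7. Among the other presentation genes Irf8 passed, with an effect lower in females by a log2 difference of -0.92 ± 0.18 (edgeR adjusted p = 0.0435). A larger effect of PTP-r in males than in females was therefore not shown for any member with edgeR in all 23 liver libraries.

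Vehicle-treated livers differed by sex in most of the module. The male vehicle libraries of this comparison are also those of the comparisons above, so the 3 sets of values are not independent. Between them edgeR called 23 of 30 members higher in females (19.3% of all genes) and 1 lower (17.4% of all genes). All 10 class II genes and 13 of 20 class I genes were called higher. The median log2 difference was 1.02 over the class II genes and 0.37 over the class I genes, beside 0.025 over all genes. The groups did not overlap for 16 members higher in females (9.05% of all genes) and for 1 lower (9.7% of all genes).

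The smallest p was that of Psmb10. Psmb10 had 30.2 to 40.9 CPM with a median of 37.4 CPM in vehicle females, against 18.7, 20.6, 21.9, 23.2 and 25.3 CPM in vehicle males (log2 difference 0.76 ± 0.08, edgeR adjusted p = 1.93e-07). Psmb8 and Tapbp were higher in females by 0.50 ± 0.07 and 0.43 ± 0.06 on the log2 scale. H2-Aa had 23.9 to 45.6 CPM with a median of 28.6 CPM in vehicle females, against 12.4 to 20.5 CPM in vehicle males, without overlap (log2 difference 0.94 ± 0.20, edgeR adjusted p = 0.000743). The member lower in females was H2-Q10, at 1571 to 2127 CPM with a median of 1644 CPM in vehicle females, against 2335, 2357, 2539, 2828 and 2842 CPM in vehicle males (log2 difference -0.58 ± 0.11, edgeR adjusted p = 0.000228). H2-K1 and B2m, which did not pass, differed by -0.01 ± 0.06 and -0.08 ± 0.05.

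In the order of the 4 liver groups, the male vehicle group had the lowest mean for all 10 class II genes and for 16 of the 20 class I genes with reads. The highest mean was in female PTP-r livers for 14 class I genes and in female vehicle livers for 9 class II genes. For H2-Aa the means were 28 ± 5.32 CPM in female PTP-r, 28.2 ± 7.48 CPM in male PTP-r, 30.4 ± 7.84 CPM in female vehicle and 15.9 ± 4.14 CPM in male vehicle livers (SD), so the first 3 lay within their spread of each other. Of the markers, all 10 for macrophages and all 10 for B cells were higher in female vehicle than in male vehicle livers, as were 5 of 6 for Kupffer cells. Their part in the difference between the sexes was not tested.

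**Figure D4:**
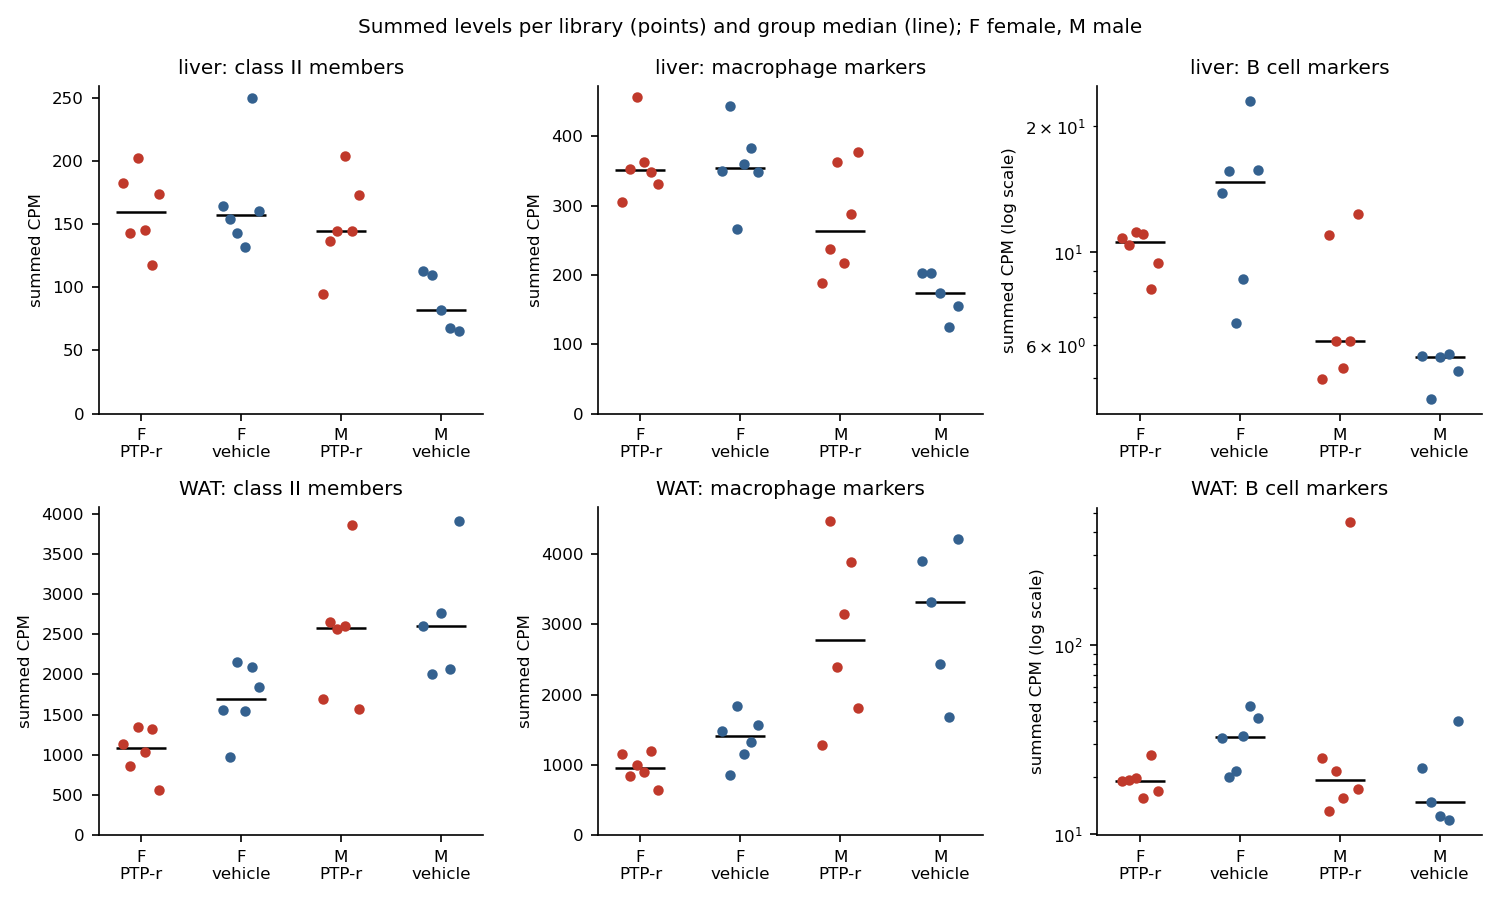
Summed level in CPM of the 10 class II members, 10 macrophage markers and 10 B cell markers (log axis) in every library of liver (top) and WAT (bottom), with a line at each group's median. The class II sum of male liver was 95.0 to 204 CPM in PTP-r libraries and 65.2 to 113 CPM in vehicle libraries, and 1 male PTP-r WAT library stands at 447 CPM of B cell markers.

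In WAT of females no member passed with edgeR, nor did any gene (0% of 17765), although 9 members and 16.4% of all genes had an unadjusted p below 0.05. DESeq2 and limma called 3 of 30 members each, H2-Q10, B2m and Cd74, and 3.34% and 2.09% of all genes. The class II genes were all lower with PTP-r, with a median log2 fold change of -0.70, beside 0.0090 over all genes, and 7 of the 10 had an unadjusted p below 0.05. The class I genes had a median of -0.019. Groups overlapped for every member.

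Cd74 had 228 to 522 CPM with a median of 444 CPM in PTP-r females, against 406 to 867 CPM with a median of 694 CPM in vehicle females (log2 fold change -0.73 ± 0.23, edgeR adjusted p = 0.132). Only vehicle library 3 lay within the range of the PTP-r libraries. H2-Aa had 111 to 291 CPM with a median of 221 CPM in PTP-r females, against 189.6 to 460.3 CPM with a median of 351 CPM in vehicle females (log2 fold change -0.69 ± 0.25, edgeR adjusted p = 0.176). H2-Ab1 had 97.4 to 239 CPM with a median of 185 CPM in PTP-r females, against 172 to 379.6 CPM with a median of 301 CPM in vehicle females (log2 fold change -0.72 ± 0.24, edgeR adjusted p = 0.144). H2-Eb1 had 95.0 to 236 CPM in PTP-r females, against 156 to 365 CPM in vehicle females (log2 fold change -0.65 ± 0.25, edgeR adjusted p = 0.201). PTP-r library 11 was the lowest library for these 3 chains and for Cd74, and vehicle library 3 the lowest of the vehicle group. Ciita had 5.56 to 16.7 CPM with a median of 11.9 CPM in PTP-r females, against 10.3 to 23.5 CPM with a median of 17.9 CPM in vehicle females (log2 fold change -0.63 ± 0.30, edgeR adjusted p = 0.299).

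Markers of several immune cell types lay on the same side in female WAT, and none passed. The macrophage markers summed to 645 to 1200 CPM with a median of 950.3 CPM in PTP-r females and 849 to 1840.1 CPM with a median of 1403 CPM in vehicle females. The B cell markers summed to 15.5 to 26.2 CPM in PTP-r females and 20.1 to 48 CPM in vehicle females. The dendritic cell markers summed to 39.3 to 66.0 CPM in PTP-r females and 52.7 to 81.9 CPM in vehicle females. Their part in the class II values was not tested.

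The smallest p in female WAT was that of H2-Q10, which had 28.5 to 85.7 CPM with a median of 56.5 CPM in PTP-r females, against 6.32 to 31.9 CPM with a median of 19.5 CPM in vehicle females. Only PTP-r library 5 reached into the vehicle range. The log2 fold change was 1.61 ± 0.38 (edgeR adjusted p = 0.0655), and the adjusted p was 0.0458 without the 2 female and 4 male WAT libraries high in markers of other tissues, and 0.00346 to 0.324 over all alternatives. H2-Q10 is a liver gene by its level, and the 6 hepatocyte markers summed to 34.9 to 528 CPM with a median of 47.6 CPM in PTP-r females and to 28.3 to 279 CPM with a median of 77.2 CPM in vehicle females, with means of 125 CPM in PTP-r females and 113 CPM in vehicle females. Their part in the H2-Q10 value was not tested. In male WAT the same gene had 6.14 to 25.7 CPM with a median of 10.9 CPM in PTP-r males, against 5.99, 7.91, 10.1, 11.9 and 16.2 CPM in vehicle males (log2 fold change 0.26 ± 0.41).

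B2m came next in female WAT, at 1472 to 2140.2 CPM with a median of 1864 CPM in PTP-r females, against 2029 to 2529 CPM with a median of 2302 CPM in vehicle females (log2 fold change -0.33 ± 0.10, edgeR adjusted p = 0.118). Its heavy chain partners differed less. H2-K1 had 834 to 1163 CPM in PTP-r females, against 857 to 1314 CPM in vehicle females, and H2-D1 had 1371 to 1884 CPM in PTP-r females, against 1579 to 1982 CPM in vehicle females, with log2 fold changes of -0.14 ± 0.12 and -0.11 ± 0.10. Tap1, Psmb8 and Nlrc5 had log2 fold changes of 0.06 ± 0.17, 0.01 ± 0.13 and 0.08 ± 0.11, with levels of 42.2 to 62.7, 36.9 to 55.1 and 51.3 to 69.7 CPM in PTP-r females, against 43.2 to 56.2, 36.6 to 51.1 and 47.7 to 71.6 CPM in vehicle females.

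**Figure D5:**
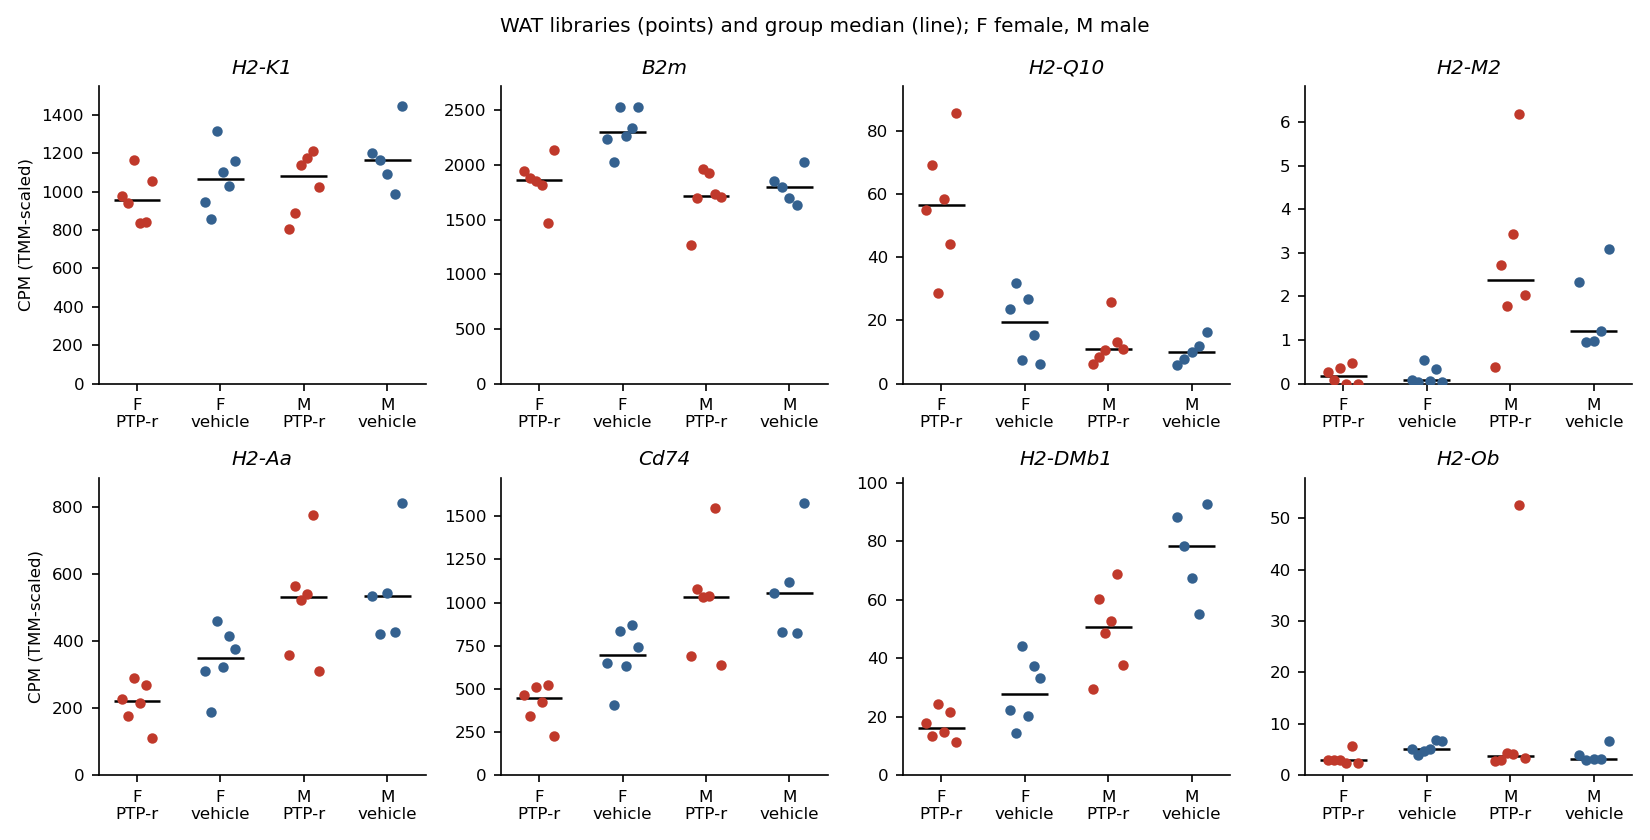
Level in CPM of 8 members in every WAT library, females left and males right with PTP-r before vehicle in each sex, and a line at the median of each group. H2-Q10 is highest in the female PTP-r libraries (28.5 to 85.7 CPM), and 1 male PTP-r library has 52.7 CPM of H2-Ob.

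In WAT of males no member passed with edgeR either, where 0.873% of all genes did. There were 5 members with an unadjusted p below 0.05, against 20.8% of all genes, DESeq2 called 0 members (6.39% of all genes) and limma 1, H2-T22 (6.3% of all genes), below the share of all genes. The median log2 fold change was 0.15 over the class I genes and -0.091 over the class II genes, beside 0.039 over all genes.

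The class II chains overlapped broadly in male WAT. H2-Aa had 311 to 777 CPM with a median of 533 CPM in PTP-r males, against 422, 426, 535, 543 and 812 CPM in vehicle males (log2 fold change -0.10 ± 0.26). H2-Ab1 had 273 to 636 CPM in PTP-r males, against 329.5 to 672 CPM in vehicle males, and H2-Eb1 had 254 to 607 CPM in PTP-r males, against 288 to 631 CPM in vehicle males (log2 fold changes -0.10 ± 0.25 and -0.07 ± 0.26). Cd74 had 639 to 1549 CPM in PTP-r males, against 826 to 1575 CPM in vehicle males, and Ciita had 17.4 to 62.8 CPM in PTP-r males, against 25.0 to 52.2 CPM in vehicle males (log2 fold changes -0.11 ± 0.24 and -0.09 ± 0.30). Male PTP-r library 7 and male vehicle library 12 were the highest of their groups for all 5 of these genes. H2-DMb1 had 29.6 to 68.8 CPM with a median of 50.7 CPM in PTP-r males, against 55.1, 67.3, 78.4, 88.3 and 92.9 CPM in vehicle males (log2 fold change -0.62 ± 0.26, edgeR adjusted p = 0.174).

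H2-Ob, H2-DMb2 and H2-Oa stood out in a single library. H2-Ob, a chain of B cells, had 2.66 to 4.21 CPM in 5 PTP-r libraries and 52.7 CPM in library 7, against 2.90 to 6.59 CPM in vehicle males. In the same library H2-DMb2 had 33.5 CPM and H2-Oa 8.43 CPM, the B cell markers summed to 447 CPM and 5 lymph node stroma markers to 74.0 CPM. Over all WAT libraries Ccl21a had no read, and Madcam1, Ccl19 and Glycam1 reached at most 0.260, 0.786 and 1.30 CPM. Nearly all of the stroma sum in library 7 was therefore Cxcl13, at 72.6 CPM. The fitted log2 fold change of H2-Ob, 1.56 ± 0.64 (edgeR adjusted p = 0.173), includes that library, and without it the value was -0.22 ± 0.26. Likewise H2-DMb2 had 1.23 ± 0.57 with it and 0.13 ± 0.40 without it, and H2-Oa had 0.96 ± 0.67 with it and -0.73 ± 0.38 without it.

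The class I genes of male WAT with the smallest p were H2-T24, at 5.28 to 15.3 CPM with a median of 12.1 CPM in PTP-r males against 6.24, 6.61, 7.37, 8.64 and 10.6 CPM in vehicle males (log2 fold change 0.54 ± 0.22, edgeR adjusted p = 0.165), and H2-T22 (log2 fold change 0.23 ± 0.11, edgeR adjusted p = 0.235). H2-K1 and H2-D1 had log2 fold changes of -0.18 ± 0.13 and 0.03 ± 0.11, with 807 to 1212 and 1223 to 1843 CPM in PTP-r males, against 988 to 1445 and 1357 to 1896 CPM in vehicle males. B2m, Tap1, Psmb8 and Nlrc5 had log2 fold changes of -0.07 ± 0.10, 0.23 ± 0.17, 0.11 ± 0.14 and 0.09 ± 0.12. The macrophage markers summed to 1281 to 4474 CPM in PTP-r males and 1687 to 4210 CPM in vehicle males. None of the 39 other presentation genes passed in WAT of either sex. The one with the smallest p in both sexes was Hfe, a class I-like gene of iron regulation, at -0.74 in females and -0.72 in males on the log2 scale (edgeR adjusted p = 0.0655 and 0.0562).

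The sexes were also compared in WAT. No member and no gene (0%) passed for a difference in PTP-r effect with edgeR, and DESeq2 and limma called 0 members. With an unadjusted p below 0.05 there were 3 members, H2-Q10 at 1.35 ± 0.55, H2-Ob at -2.32 ± 0.88 and H2-DMb2 at -2.0 ± 0.78 on the log2 scale (females minus males), against 8.56% of all genes. Without male PTP-r library 7 the differences were -0.53 ± 0.36 for H2-Ob and -0.89 ± 0.54 for H2-DMb2, neither at an unadjusted p below 0.05. Between vehicle groups edgeR called 3 members higher in females (13.6% of all genes) and 5 lower (13.3% of all genes), close to the share of all genes. The vehicle libraries of this contrast are also those of the treatment contrasts in WAT.

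The class II genes called between vehicle WAT groups were all lower in females, the opposite side to liver. H2-DMb1 had 14.5 to 44 CPM with a median of 27.9 CPM in vehicle females, against 55.1, 67.3, 78.4, 88.3 and 92.9 CPM in vehicle males (log2 difference -1.42 ± 0.26, edgeR adjusted p = 0.000549). Ciita differed by -0.98 ± 0.31, H2-DMa by -0.70 ± 0.22 and Cd74 by -0.65 ± 0.24, the last at an edgeR adjusted p of 0.0494 that was lost without any of 7 of the 11 vehicle libraries, female libraries 2, 3, 7 and 12 and male libraries 3, 9 and 12. Ciita and H2-DMa lost theirs without female vehicle library 3 or male vehicle library 12. H2-M2 was lower in females, on 30 reads over 6 female vehicle libraries against 247 reads over 5 male vehicle libraries, a ratio of 0.104 relative to all gene reads (exact 95% interval 0.0687 to 0.152). H2-M2 entered the module only through male WAT, and H2-M9 only through female WAT. The sex differences of both genes are therefore not independent of how they were chosen. The members higher in females were B2m by 0.37 ± 0.10, Nlrc5 by 0.33 ± 0.12 and H2-M9 by 1.51 ± 0.39. Nlrc5 (edgeR adjusted p = 0.0399) lost its call without any of 7 of the 11 vehicle libraries, female libraries 7, 10 and 12 and male libraries 3, 4, 9 and 10. Without the WAT libraries high in markers of other tissues only 2 members were called, H2-DMb1 and H2-M2. Of 18240 genes 1617 were then higher and 2345 lower. B2m also lost its call with no expression filter. Macrophage markers were lower in female vehicle WAT for 9 of 10 genes, with sums of 849 to 1840.1 CPM in females and 1687 to 4210 CPM in males, and epididymis markers, at most 0.0383 CPM in female vehicle WAT, summed to 1.19 to 48.4 CPM in male vehicle WAT. Their part in these differences was not tested.

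The effect of PTP-r in liver, averaged over the sexes, was set against that in WAT in a fit of all 46 libraries. The same-numbered libraries of the organs had the same sex and treatment and may come from the same mice, but the fit did not pair them. At an edgeR adjusted p below 0.05, the difference was called positive for 8 of the 31 members (2.99% of all genes) and negative for 1 (2.4% of all genes). The 8 were the class II genes H2-DMb1 (1.00 ± 0.23), H2-Eb1 (0.77 ± 0.24), H2-Ab1 (0.75 ± 0.23), Cd74 (0.72 ± 0.22) and H2-DMa (0.68 ± 0.21) and the class I genes H2-Q4 (0.42 ± 0.11), Psmb10 (0.40 ± 0.10) and Tapbp (0.36 ± 0.09), as log2 differences with SE. The one called negative was H2-Q10, at -0.97 ± 0.30 (edgeR adjusted p = 0.0448). Its call was lost under 3 alternatives and in 25 of the 46 fits that left out 1 library. The largest of its PTP-r fold changes given above was that in female WAT, at 1.61 on the log2 scale. The median difference was 0.72 over class II and 0.26 over class I genes, beside -0.055 over all genes. The count was 4 or 5 without any of 24 of the 46 libraries and 14 without male PTP-r WAT library 7, and H2-DMb1, Tapbp, Psmb10 and H2-Q4 passed in all 46 of these fits. With the same-numbered libraries as a block, 6 members passed (4.72% of all genes), and H2-Eb1, H2-DMa and H2-Q10 lost their calls. H2-M9 is among the 31, but with no read in liver its fitted difference is not given.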

How the data were processed

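The authors deposited STAR gene counts per library, raw and not normalised. The submitters' processing notes name STAR 2.4.0i, HTSeq and mm10, without saying which step each served. The count column of the stranded protocol that held 96.0% to 96.5% of strand-assigned reads (column 4) was used for all 46 libraries. Reads not assigned to a gene were 21.0% to 28.9% of reads in liver and 18.4% to 28.7% in WAT, and stayed out of library sizes. Reads aligning to several places, which near-identical genes share, were 4.47% to 7.79%. Gene names came from a GENCODE annotation of GRCm38, matching 55141 of 55487 identifiers.

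Each organ was fitted with edgeR 4.0.16 in R 4.3.3 (TMM scaling, quasi-likelihood test, minimum count 10 and minimum total 15 in the expression filter), with all 4 groups in 1 fit and Benjamini-Hochberg adjustment over all genes tested. DESeq2 1.42.0 and limma 3.58.1 were alternatives. CPM values use TMM library sizes. The fits were tested on simulated data. The genes named with values in each library are H2-K1, H2-D1, B2m, Tap1, Psmb8, Nlrc5, H2-Aa, H2-Ab1, H2-Eb1, Cd74 and Ciita and the 3 members with the smallest p in a comparison; others given values were chosen after their values were seen. The members, the gene lists and the tests were chosen with earlier results of these data known. Intervals and floors cover counting error only, and reads without molecular identifiers are not independent molecules.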

Additional observations from a re-analysis of the deposited data

Results flagged for a closer look

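In 244 groups of 5 or 6 libraries, 1 library stood far from the others of its group 26 times (10.7%). The rule flags about 1 in 20 groups of independent, normally distributed values. The members share libraries and vary together, so 10.7% cannot be read against that rate. Several fall in the same library. In liver, female vehicle library 10 was high for 6 class II genes, with 5.65 CPM of H2-DMa, 4.62 CPM of H2-DMb1, 43.9 CPM of H2-Ab1, 45.6 CPM of H2-Aa, 37.3 CPM of H2-Eb1 and 103 CPM of Cd74. In WAT, male PTP-r library 7 was high with 8.43 CPM of H2-Oa, 33.5 CPM of H2-DMb2 and 52.7 CPM of H2-Ob, and female PTP-r library 9 was high for the same genes with 1.18, 5.86 and 5.62 CPM.

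Single libraries stood apart for other members in liver. Female vehicle library 2 was low with 27.7 CPM of Psmb8 and 30.2 CPM of Psmb10. Female vehicle library 12 had 2127 CPM of H2-Q10, and female vehicle library 3 had 238 CPM of H2-T23. Female PTP-r library 5 had 5.11 CPM of Ciita. Among male PTP-r livers, library 6 had 37.9 CPM of Tap2 and library 11 had 0.456 CPM of H2-M2.

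In WAT, male PTP-r library 1 had 248 CPM of Tapbp and male PTP-r library 6 had 25.7 CPM of H2-Q10. Female vehicle library 12 had 0.884 CPM of H2-Q1 and 3.80 CPM of H2-M9, and female vehicle library 3 had 73.9 CPM of H2-T23. Male vehicle library 4 had 1.47 CPM of H2-M9, and male vehicle library 12 had 6.59 CPM of H2-Ob.

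The effect of PTP-r differed between liver and WAT for 9 members in edgeR's test of that difference, made without pairing the libraries (adjusted p below 0.05). As log2 differences, liver minus WAT, these were 0.36 for Tapbp, 0.40 for Psmb10, 0.42 for H2-Q4, 1.00 for H2-DMb1, 0.75 for H2-Ab1, 0.72 for Cd74, 0.68 for H2-DMa, 0.77 for H2-Eb1 and -0.97 for H2-Q10.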

How the results depend on the processing

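The count of members called in male liver, 22, was 19 to 22 under the other alternatives but 0 with the description number as a replicate block, which in males rests on 1 number shared by both groups. Under that block no gene of 15892 was called in male liver, and the members' median log2 fold changes were 0.63 for class I and 1.60 for class II. DESeq2 called 3 members in female liver, 3 in female WAT, 3 for the sex difference in liver and 14 for the organ difference, against 0, 0, 0 and 9 with edgeR. Limma called 3 in female WAT and 1 in male WAT, where edgeR called 0. Without an expression filter the counts were 5 between vehicle WAT groups (8 with it) and 4 for the organ difference. Without the libraries high in markers of other tissues they were 1 in female WAT, 2 between vehicle WAT groups and 4 for the organ difference. Without the libraries high in B and plasma cell markers the organ difference had 16. The cause was not tested. Leaving out 1 library gave 16 to 23 in male liver, 0 to 0 in female liver, female WAT, male WAT and the WAT sex difference, 0 to 1 for the liver sex difference, 21 to 24 between vehicle livers, 5 to 10 between vehicle WAT groups (5 without female vehicle library 3 or male vehicle library 12) and 4 to 14 for the organ difference. No named result changed sign among those called. The same-numbered libraries of liver and WAT had the same sex and treatment in all 23 pairs, so each pair may come from the same mouse. They correlated at -0.132 to 0.126, and 7 of the 23 were best with their own number. A correlation between different organs cannot exclude a shared mouse. The main fit took no pairs, and the block on the numbers gave 6 for the organ difference.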
